A study of Homo sapiens with 12 samples.

Results

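Replication-dependent histone genes are the protein-coding histone genes of the HIST1, HIST2, HIST3 and HIST4 clusters, and they were examined in T47D, a human luminal breast cancer cell line that expresses the estrogen receptor. They were selected by name, from older symbols starting with HIST1H, HIST2H or HIST3H, from HIST4H4, and from the newer symbols for H1-1 to H1-6, H2AC, H2BC, H3C and H4C, and a gene was kept at 20 or more counts over the 12 libraries. This left 15 genes of the 57773 counted. GENCODE 29 lists 71 such genes. By identifier 36 of them were found in the files, and the other 35 were not analysed here. Of the 36 found, 21 were under the minimum, 7 of them at 0 counts in every library. The kept genes were 2 of 6 found for linker histone H1, 3 of 9 for H2A, 7 of 10 for H2B, 1 of 7 for H3 and 2 of 4 for H4. The gene just inside the minimum was H1-4 with 20 counts, and the nearest outside were H2BC13 with 13 and H2AC20 with 12.

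All cells carried a hairpin construct, switched on by doxycycline, that knocks down PSMD2, which encodes part of the 19S cap of the proteasome. In the Lo19S state the hairpin had been switched on by doxycycline (0.2 µg/ml for 3 days, then 24 h in its absence), and control cells were never induced, so knockdown and doxycycline exposure cannot be told apart. Each state then received bortezomib, a proteasome inhibitor, at 20 nM or the solvent DMSO for 16 h. That gave 4 groups of 3 libraries: control DMSO, Lo19S DMSO, control bortezomib and Lo19S bortezomib. Separate cultures are not named in the labels, so the p-values reflect library-to-library spread, which may be technical.

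Replication-dependent histones supply the protein on which newly copied DNA is wrapped: H2A, H2B, H3 and H4 build the nucleosome core and H1 binds the linker DNA. Their genes are transcribed mainly in S phase, with NPAT as the coactivator at the histone locus body. Their mRNAs normally end without a poly(A) tail, in a conserved stem loop that is bound by SLBP and is the signal for 3′ processing and for decay when DNA synthesis stops. Some of these genes also give polyadenylated mRNA from a site past the stem loop, and this is the form that a library selected on poly(A), as used here, can catch. The counts therefore describe mRNA captured through a poly(A) tract, not the whole histone mRNA of the cell. In RNA from whole cultures, fewer cells in S phase and less histone mRNA per cell cannot be told apart.

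The stem loop is shown for the 8 genes among those tested whose annotated transcripts hold it, because it is the element that defines the class. Each site is 26 bases of the GENCODE 29 transcript in DNA letters, 5′ to 3′, and the capitals mark the 16-base match, searched on the transcript strand: GG, any 2 bases, CTTTT, any base, AG, any 2 bases and CC.
H2AC6: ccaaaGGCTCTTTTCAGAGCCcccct
H2AC25: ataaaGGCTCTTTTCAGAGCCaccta
H2BC21: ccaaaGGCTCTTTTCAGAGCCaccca
H2BC5: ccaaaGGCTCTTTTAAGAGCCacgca
H2BC4: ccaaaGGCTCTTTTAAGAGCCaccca
H2BC15: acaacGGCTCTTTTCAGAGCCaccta
H4C8: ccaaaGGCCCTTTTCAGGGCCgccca
H4C16: caaaaGGCCCTTTTCAGGGCCcccaa
H2AC6, H2AC25, H2BC21 and H2BC15 shared 1 core, as did H2BC26, H2AC13 and H2BC18 among the genes with few counts. H2BC5 and H2BC4 shared another, and the H4 genes H4C8 and H4C16 one of their own. All 6 stem positions paired in each. In all, 11 of the 15 genes held the motif in at least 1 coding transcript. Counted per transcript and not per gene, it stood in 0.0619% of 206694 transcripts and 0.0866% of the 83129 protein-coding ones. The annotated transcripts of H2BC12, H1-2, H3C4 and H1-4 did not hold these letters. The models of H2BC12, H3C4, H1-2 and H1-4 were 381, 411, 642 and 754 bases long. A stem loop past the end of a model would not be found. A transcript reaching 200 or more bases past the stem loop was annotated for 7 genes, among them H2AC6 (up to 1114 bases), H2BC21 (1729), H4C8 (630), H2AC25 (390) and H2BC15 (377). AATAAA, the common polyadenylation signal, stood in the last 40 bases of at least 1 transcript of 5 genes. Counted per transcript and not per gene, 34.4% of all protein-coding transcripts held it there.

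Promoters are shown for H2AC6 and H2BC4, which lie head to head and both fell with bortezomib, for H2BC12, which gave the most counts, and for H2BC15 and H4C8, which were not called lower. The windows are the 150 bases before the RefSeq start in GRCh38.p14, 5′ to 3′ on the gene's strand. They are chr6:26124022-26124171 on the plus strand for H2AC6, chr6:26123927-26124076 on the minus strand for H2BC4, chr6:27146859-27147008 (minus) for H2BC12, chr6:27838419-27838568 (plus) for H2BC15 and chr6:26285535-26285684 (minus) for H4C8. Capitals mark the TATA box letters TATAAA, the CCAAT box and the octamer ATTTGCAT, each searched on both strands.
H2AC6: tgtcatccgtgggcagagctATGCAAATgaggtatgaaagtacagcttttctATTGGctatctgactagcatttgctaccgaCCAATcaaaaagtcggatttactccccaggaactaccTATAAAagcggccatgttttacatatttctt
H2BC4: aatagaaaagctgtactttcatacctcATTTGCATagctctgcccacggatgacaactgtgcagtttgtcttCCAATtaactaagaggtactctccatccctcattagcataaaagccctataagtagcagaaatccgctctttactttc
H2BC12: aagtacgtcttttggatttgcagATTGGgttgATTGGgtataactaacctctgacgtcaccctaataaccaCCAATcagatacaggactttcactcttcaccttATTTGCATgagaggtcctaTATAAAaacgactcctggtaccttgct
H2BC15: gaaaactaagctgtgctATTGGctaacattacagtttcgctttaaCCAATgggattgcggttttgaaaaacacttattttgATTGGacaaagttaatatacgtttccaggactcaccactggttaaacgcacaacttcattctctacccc
H4C8: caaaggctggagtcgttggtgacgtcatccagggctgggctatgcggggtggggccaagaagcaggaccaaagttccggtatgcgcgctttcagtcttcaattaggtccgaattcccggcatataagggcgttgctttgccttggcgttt
The windows of H2AC6 and H2BC4 overlap on opposite strands, and their octamer match is the same stretch of DNA. The 15 genes had 18 RefSeq windows, and a motif counted for a gene if any of its windows held it. CCAAT was found in 13 genes, TATAAA in 7 and the octamer in 6. H3C4 held TATAAA and the octamer in different windows. Among 35116 promoters of that length, counted per promoter and not per gene, the shares were 23.5%, 6.71% and 0.988%. Neither H4 gene held any of these motifs, although H4C16 was called lower with bortezomib in Lo19S cells. H2BC15 held CCAAT alone, as did H2BC26 and also H2AC25 and H1-2, which were called lower in both states. A relation of these motifs to the response was not tested.

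Library totals ran from 7376597 to 15003480 counts. PSMD2, the target of the hairpin, was at 405.8 ± 12.8 scaled CPM in control DMSO and 185.3 ± 3.34 in Lo19S DMSO (SD, n = 3), and at 1516 ± 10.5 and 542.0 ± 3.29 with bortezomib. Scaled CPM are counts set to a common library size by trimmed-mean-of-M-values (TMM) scaling, not divided by gene length. Among the replicates, control DMSO replicate 3 was set apart by a chi-square test over genes, at 3.98 and 4.36 per degree of freedom against 1.16 to 2.01 for the other replicate pairs. Luminal markers, 10 of 10 found, summed to 7078 to 7194 scaled CPM in control DMSO, 6305 to 6402 in Lo19S DMSO, 3939 to 4025 in control bortezomib and 3897 to 4077 in Lo19S bortezomib. With bortezomib 7 of the 10 were called lower and 3 higher in each state. Of all genes tested, 42.2% were called lower in control and 39.7% in Lo19S cells. The 7 fibroblast markers summed to 26.0 to 31.4 in control DMSO, 33.0 to 33.8 in Lo19S DMSO, 63.5 to 69.8 in control bortezomib and 44.2 to 47.1 in Lo19S bortezomib. The 7 leukocyte markers, 2 of them at 0, stayed at or below 2.42 and the endothelial markers at or below 0.378. The higher fibroblast sums with bortezomib came from COL1A1, at means of 27.3, 28.8, 64.4 and 41.5 in that order of groups. LUM was at 1.74, 4.09, 1.65 and 4.01, and the other 5, among them DCN, at or below 0.428 in every library. The part of COL1A1 expression and of the lower luminal sum in the histone results was not tested.

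Histone mRNA was rare in these libraries: the 15 genes took 0.0133% to 0.0142% of the counts in control DMSO, 0.0160% to 0.0167% in Lo19S DMSO, 0.00560% to 0.00615% in control bortezomib and 0.00681% to 0.00730% in Lo19S bortezomib. H2BC12, an H2B gene of the HIST1 cluster, gave 48.0% of all their counts, followed by H2AC6 with 10.01%, H2BC21 with 9.20%, H1-2 with 8.79% and H2BC5 with 6.46%. The share of H2BC12 was 43.9 ± 2.62% in control DMSO and 44.2 ± 1.12% in Lo19S DMSO, and 60.0 ± 1.82% and 54.6 ± 2.41% with bortezomib (SD, n = 3). H2BC12 thus made up more of the histone counts in each bortezomib library than in any DMSO library. Of the 50-base windows of its annotated transcript, 74.1% also occur in other genes, as do 100% of those of H3C4 and 62.3% of those of H2AC13. Counts of these genes are uncertain, because it is not given in the sources used here how reads matching several genes were counted. For H2BC5, H2BC15, H3C4 and H2BC18, other annotated genes overlap the gene in GENCODE 29, so reads there cannot be assigned to 1 gene with certainty.

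Summed over each class, H1, H2A, H2B and H3 levels were lower in all 6 bortezomib libraries than in all 6 DMSO libraries, while H4 was not. H2A went from 22.1 scaled CPM in control DMSO to 4.40 in control bortezomib, a ratio of -2.33 on the log2 scale, and from 24.1 to 6.0 in Lo19S cells (-2.0). H1 went from 12.8 to 4.57 in control cells (-1.49) and from 14.2 to 4.70 in Lo19S cells (-1.59). The H1 sum is nearly all H1-2, since H1-4 was at or below 0.478 in every library. The H2B sum, which is mostly H2BC12, went from 81.2 to 54.0 (-0.59) and from 96.8 to 58.2 (-0.73). H4 stood at 5.14 in control DMSO and 5.35 in control bortezomib (0.06), and at 9.13 and 7.68 in the Lo19S groups (-0.25). The single H3 gene was at 0.866, 1.02, 0.307 and 0.289 in control DMSO, Lo19S DMSO, control bortezomib and Lo19S bortezomib. These sums were not tested. With scaling to library totals every bortezomib ratio was lower, and the H4 ratio in control cells turned to -0.32.

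**Figure D1:**
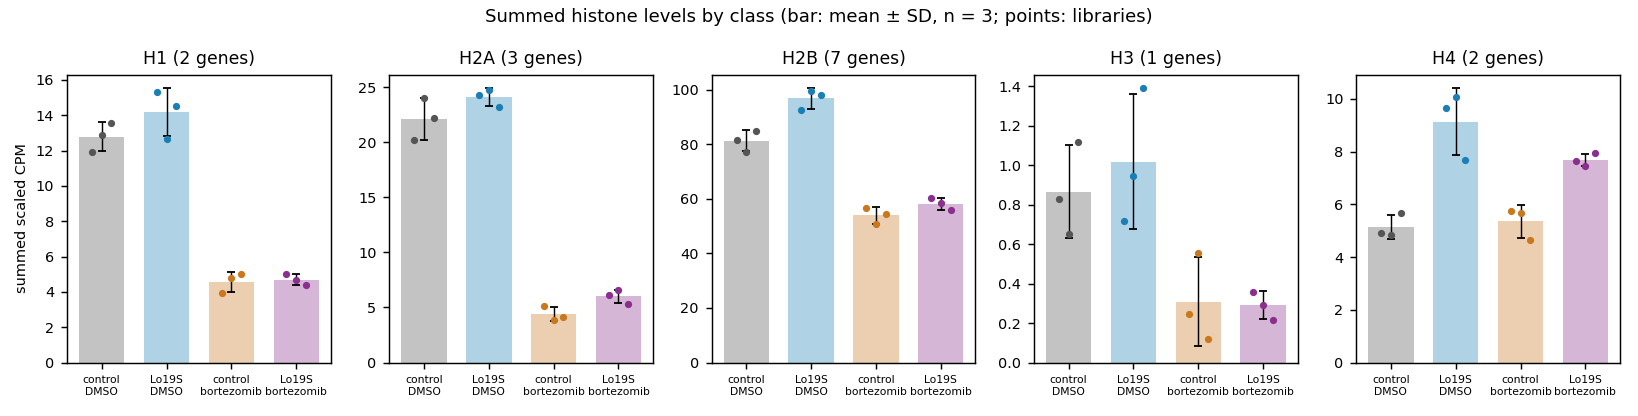
Summed level of the replication-dependent histone genes of each class in scaled CPM (y axis, linear, from 0, own scale per panel) for the 4 groups of 3 libraries (x axis). Bars are means with SD and points are libraries; the H2A mean is 22.1 in control DMSO and 4.40 in control bortezomib, while the H4 mean is 5.14 and 5.35.

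The filter on low counts left 11 of the 15 genes for testing. H3C4 passed it only through DMSO libraries, and H4C16, H2BC5 and H2BC4 reached its level in 0, 2 and 1 of the 3 control bortezomib libraries. Counts over tested genes are therefore not counts over the whole family, and leave out H2BC26, H2AC13, H2BC18 and H1-4.

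Bortezomib against DMSO asks how proteasome inhibition changes these transcripts, and in control cells the tested H1 and H2A genes and most H2B genes fell. Of the 11 tested, 8 were called lower and 0 higher at an adjusted p below 0.05, where 81.4% of all 14714 genes tested were called, 42.2% lower and 39.2% higher. The median log2 fold change was -1.43 for the histone genes and -0.04 for all genes. That histone median is the value of H3C4, a gene with few counts (SE 0.54). The genes that did not pass were the H4 genes H4C8 and H4C16 and the H2B gene H2BC15. In Lo19S cells, where 77.5% of all genes were called, 9 were called lower, against 39.7% of all genes, and 1 higher, against 37.8%, with a median of -1.14 beside -0.02 for all genes. With library totals the all-gene shares were 57.4% lower and 25.3% higher in control cells, and 53.8% and 25.4% in Lo19S cells. H3C4 is among those called lower, but it had passed the filter only through groups where it is higher; without it, 7 and 8 of the other 10 were called lower in control and Lo19S cells. The comparisons in control and Lo19S cells share no library, but both come from 1 fit with a common filter, scaling and estimate of spread. Without control DMSO replicate 3, 7 genes were called lower in control cells and 0 higher.

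H2AC6 encodes a core histone H2A and fell in both states. It was at 14.5, 15.9 and 14.0 scaled CPM in control DMSO and 3.66, 2.34 and 2.5 in control bortezomib, and at 18.2, 17.9 and 17.0 in Lo19S DMSO and 4.54, 4.83 and 4.04 in Lo19S bortezomib. All bortezomib libraries lay below all DMSO libraries. The log2 fold change was -2.39 (SE 0.16, adjusted p = 4.64e-19) in control cells and -2.02 (SE 0.13, adjusted p = 8.22e-19) in Lo19S cells. H2AC25, the H2A gene of the HIST3 cluster, read 5.29, 7.73 and 8.08 in control DMSO and 1.22, 1.56 and 1.31 in control bortezomib. In Lo19S cells it read 5.74, 6.20 and 5.66 with DMSO and 1.55, 1.46 and 1.23 with bortezomib. It was likewise lower in every bortezomib library, by -2.33 (SE 0.23, adjusted p = 6.67e-13) and -2.08 (SE 0.23, adjusted p = 2.44e-11) in control and Lo19S cells.

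H1-2 encodes a linker histone that binds DNA between nucleosomes. Its levels were 11.9, 12.8 and 13.5 in control DMSO and 3.66, 4.45 and 5.0 in control bortezomib, and 14.8, 12.5 and 14.4 against 4.90, 4.54 and 4.33 in Lo19S cells. The groups did not overlap in either state, and the changes were -1.53 (SE 0.15, adjusted p = 2.27e-13) in control and -1.61 (SE 0.14, adjusted p = 9.47e-15) in Lo19S cells. H3C4, the only H3 gene kept, was near the limit of detection, with 30 counts over the control DMSO libraries, 33 over Lo19S DMSO, and 8 over each bortezomib group. It fell by 1.43 (SE 0.54, adjusted p = 0.0150) in control cells and by 1.80 (SE 0.53, adjusted p = 0.00207) in Lo19S cells on the log2 scale. The call in control cells was lost without control DMSO replicate 3 (adjusted p = 0.0622), control bortezomib replicate 1 (0.0545) or control bortezomib replicate 3 (0.0941), and with DESeq2 (0.0525).

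The H2B genes were spread from a deep fall to a rise. H2BC5 read 7.86, 9.13 and 10.8 in control DMSO and 2.32, 1.0 and 1.91 in control bortezomib, and 11.6, 11.4 and 11 against 3.94, 3.66 and 3.17 in Lo19S cells. Every bortezomib library was below every DMSO library, with changes of -2.41 (SE 0.21, adjusted p = 8.13e-15) in control and -1.68 (SE 0.16, adjusted p = 5.36e-13) in Lo19S cells. H2BC4, head to head with H2AC6, read 2.87, 3.17 and 4.83 in control DMSO against 1.34, 0.891 and 0.834 in control bortezomib. In Lo19S cells its values were 4.86, 5.42 and 4.92 with DMSO and 1.43, 2.34 and 2.81 with bortezomib. Its groups did not overlap, and it fell by 1.80 (SE 0.30, adjusted p = 4.47e-07) and by 1.14 (SE 0.22, adjusted p = 9.95e-06) on the log2 scale.

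The abundant H2B genes fell less. H2BC21, in the HIST2 cluster, was at 12, 11.3 and 11.1 in control DMSO and 6.84, 6.79 and 5.60 in control bortezomib, and at 12.9, 13.7 and 13.6 against 6.33, 7.32 and 6.42 in Lo19S cells. Its groups did not overlap, with changes of -0.84 (SE 0.13, adjusted p = 1.54e-07) and -1.01 (SE 0.12, adjusted p = 4.42e-10). H2BC12 was at 55.5, 49.4 and 55.7 in control DMSO and 42.5, 38.5 and 42.5 in control bortezomib, and at 61.1, 66.5 and 64.8 against 45.3, 40.5 and 40.2 in Lo19S cells. Its groups did not overlap either, but its changes of -0.38 (SE 0.067, adjusted p = 1.53e-06) and -0.61 (SE 0.065, adjusted p = 6.57e-12) were the smallest falls that were called.

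H2BC15 was the histone gene that rose. It read 2.49, 3.17 and 1.77 in control DMSO and 3.54, 3.34 and 3.45 in control bortezomib, and 1.75, 2.07 and 2.46 against 3.11, 4.54 and 3.03 in Lo19S cells. Bortezomib libraries were above DMSO libraries in both states. The rise was called in Lo19S cells, 0.73 (SE 0.24, adjusted p = 0.00522), and not in control cells, 0.47 (SE 0.23, adjusted p = 0.0572). Scaled to library totals the value in Lo19S cells was 0.44 and no longer passed (adjusted p = 0.0859), and that in control cells was 0.09 (adjusted p = 0.712). The TMM-scaled value in control cells passed without control DMSO replicate 2 (0.67, adjusted p = 0.0174) or Lo19S bortezomib replicate 2 (0.50, adjusted p = 0.0433), and with relative log expression (RLE) size factors (adjusted p = 0.0487). The GENCODE 29 model of H2BC15 overlaps HIST1H2AL on the same strand. On the opposite strand it overlaps HIST1H2AK and the histone pseudogene HIST1H2BPS2.

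The H4 genes showed no shared change with bortezomib. H4C8 was at 4.0, 2.98 and 4.46 in control DMSO and 4.89, 5.01 and 3.93 in control bortezomib, and at 6.85, 7.14 and 5.24 against 6.81, 5.27 and 6.49 in Lo19S cells, with overlapping groups in both states. Neither change passed, at 0.27 (SE 0.19, adjusted p = 0.196), a value that turned to -0.11 with scaling to library totals, and -0.05 (SE 0.16, adjusted p = 0.796). H4C16, the HIST4 gene, read 0.906, 1.86 and 1.21 in control DMSO and 0.855, 0.668 and 0.715 in control bortezomib, and 2.79, 2.93 and 2.46 against 0.836, 2.19 and 1.44 in Lo19S cells. The groups were apart in both states, and the fall was called in Lo19S cells, -0.92 (SE 0.28, adjusted p = 0.00347), but not in control cells, -0.79 (SE 0.40, adjusted p = 0.0652). The control value passed without control DMSO replicate 1 (-1.04, adjusted p = 0.0237) and with library totals (-1.17, adjusted p = 0.00659).

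**Figure D2:**
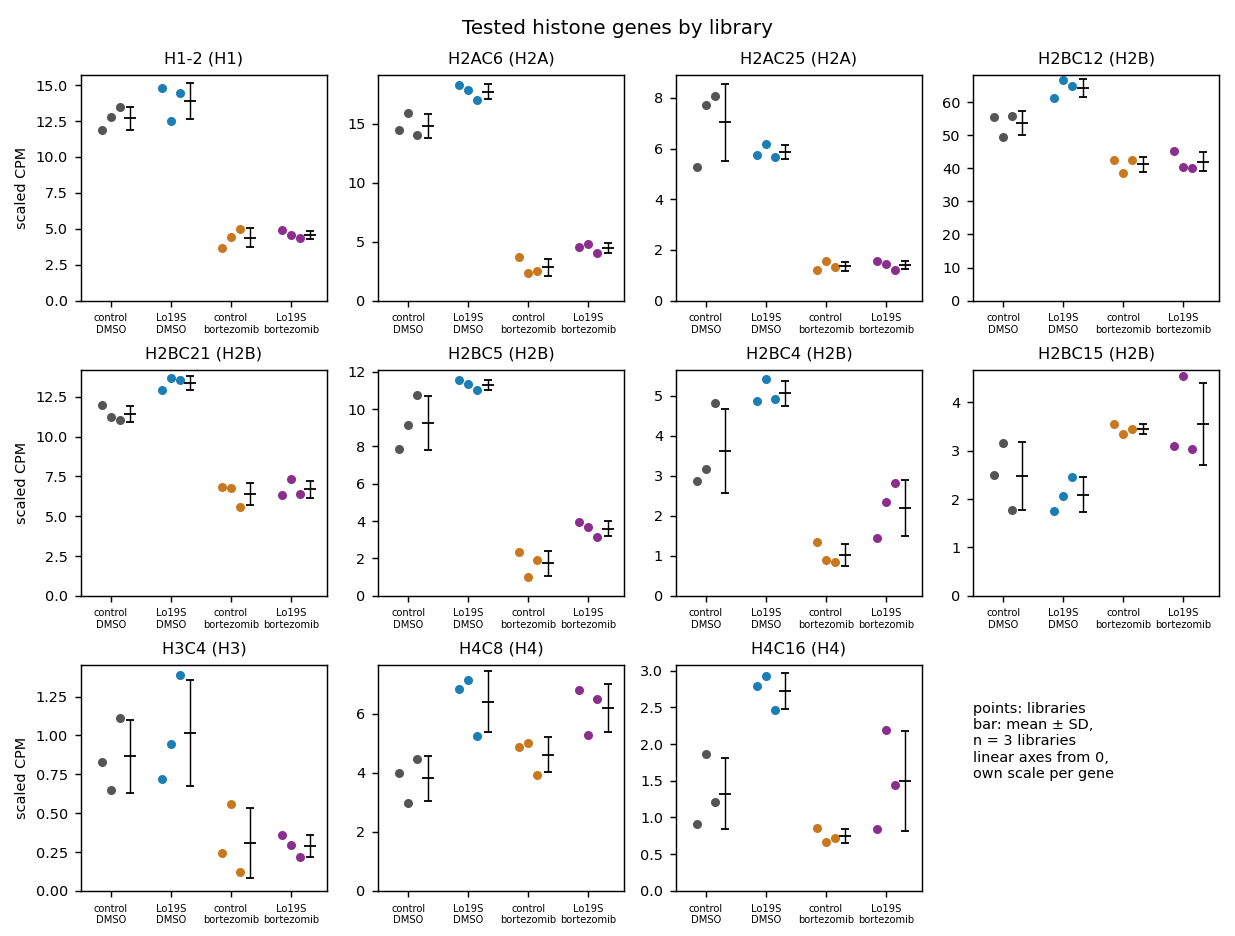
Level of each tested histone gene in scaled CPM (y axis, linear, from 0, own scale per gene) in the 12 libraries by group (x axis), with mean and SD of 3 libraries. H2AC6 lies between 14.0 and 18.2 in the DMSO libraries and between 2.34 and 4.83 in the bortezomib libraries, whereas H4C8 groups overlap between treatments.

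Lo19S against control under DMSO compares induced with uninduced cells in the absence of bortezomib, and the histone genes called were higher. It uses the same DMSO libraries as the bortezomib comparisons, so the values are given side by side and not related to each other. Of 11 tested, 5 were called higher and 0 lower, where 24.7% of all genes were called, 11.7% higher and 13.0% lower. The median was 0.26 for the histone genes and -0.004 for all genes. Both H4 genes rose, and these were the largest changes. H4C16 rose by 1.07 (SE 0.28, adjusted p = 0.00279) and H4C8 by 0.76 (SE 0.17, adjusted p = 0.000524) on the log2 scale, and in both genes all Lo19S DMSO libraries lay above all control DMSO libraries. H2BC12 was also apart between the groups, at 53.6 ± 3.57 and 64.1 ± 2.76 scaled CPM (SD, n = 3), a rise of 0.26 (SE 0.060, adjusted p = 0.0010).

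H2AC6 and H2BC4 passed narrowly, at 0.26 (SE 0.099, adjusted p = 0.0453) and 0.50 (SE 0.19, adjusted p = 0.0488), with groups that did not overlap. With DESeq2 only H2BC12, H4C8 and H4C16 were called higher. The 20-count minimum and testing all genes with at least 1 count also lost the calls of H2AC6 (adjusted p = 0.0609 and 0.160) and H2BC4 (0.0580 and 0.104), the replicate block that of H2AC6 (0.0571), and a fit of the compared groups alone that of H2BC4 (0.0591). The call of H2AC6 was also lost when any of control DMSO replicate 1 or 3, Lo19S DMSO replicate 1, 2 or 3, control bortezomib replicate 2 or 3, or Lo19S bortezomib replicate 1 was left out (adjusted p between 0.0508 and 0.157). That of H2BC4 was lost without control DMSO replicate 1 or 2, Lo19S DMSO replicate 1, 2 or 3, control bortezomib replicate 1, 2 or 3, or Lo19S bortezomib replicate 2 (adjusted p between 0.0541 and 0.288). H2BC5 (0.30, adjusted p = 0.0771) and H2BC21 (0.22, adjusted p = 0.131) had groups that did not overlap and were not called; H2BC5 passed without control DMSO replicate 3 (0.42, adjusted p = 0.00940). H1-2 (0.14), H3C4 (0.19), H2AC25 (-0.24) and H2BC15 (-0.26) did not pass and their groups overlapped, although H2AC25 passed as lower without control DMSO replicate 1 (-0.43, adjusted p = 0.0486).

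Under bortezomib, 4 of the 11 genes were called higher in Lo19S than in control cells and 0 lower, where 43.1% of all genes were called, 22.0% higher and 21.2% lower (33.4% and 12.8% with library totals). The median was 0.05, beside 0.004 for all genes, and was 0.51 without control bortezomib replicate 2. H2BC5 was higher by 1.03 (SE 0.26, adjusted p = 0.00117), H2BC4 by 1.16 (SE 0.34, adjusted p = 0.00425) and H2AC6 by 0.63 (SE 0.21, adjusted p = 0.0109) on the log2 scale. In these genes all Lo19S bortezomib libraries were above all control bortezomib libraries. H4C8 was higher by 0.44 (SE 0.18, adjusted p = 0.0434), and H4C16 stood at 0.95 (SE 0.41, adjusted p = 0.0535) with overlapping groups. The other 6 genes ranged from -0.18 for H3C4 to 0.05 for H1-2.

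The H2BC4 call was lost without Lo19S bortezomib replicate 3 (0.85, adjusted p = 0.104), and that of H2AC6 without control bortezomib replicate 2 (0.51, adjusted p = 0.0788) or 3 (0.56, adjusted p = 0.0543). H4C8 did not pass without control bortezomib replicate 1, 2 or 3 or Lo19S bortezomib replicate 1 or 3 (adjusted p between 0.0526 and 0.187), with RLE size factors (0.0510), DESeq2 (0.142), the 20-count minimum (0.0538) or all genes with at least 1 count (0.0907). H4C16 passed with library totals (1.06, adjusted p = 0.0283), with the replicate number as a block (0.98, adjusted p = 0.0451), and without Lo19S bortezomib replicate 1 (1.18, adjusted p = 0.0200) or control DMSO replicate 2 (0.95, adjusted p = 0.0480) or 3 (0.95, adjusted p = 0.0440).

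**Figure D3:**
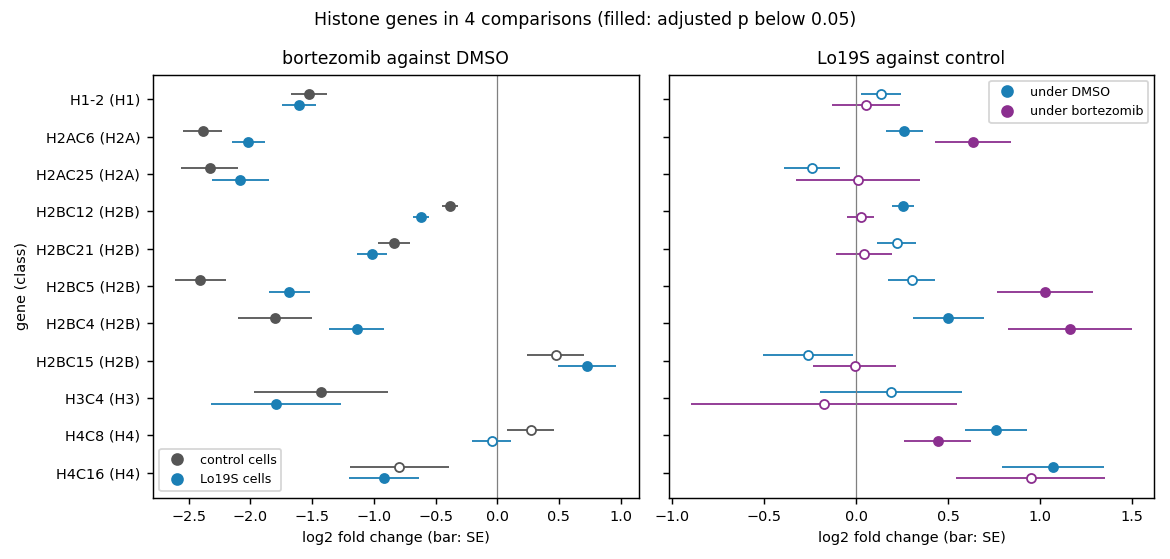
Log2 fold change (x axis, bar: SE) of the 11 tested histone genes (y axis, with class), left for bortezomib against DMSO in control and Lo19S cells and right for Lo19S against control under DMSO and under bortezomib. Filled points have an adjusted p below 0.05; on the left H2AC6, H2AC25 and H2BC5 lie farthest below 0 and H2BC15 alone is called above it.

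The response to bortezomib in Lo19S cells minus that in control cells tests whether the state changed the response, and it was called for 0 of the 11 genes by edgeR and 0 by DESeq2, where edgeR called 27.8% of all genes, 14.4% higher and 13.4% lower (22.6% and 8.54% with library totals). At an unadjusted p below 0.05 there were 2, H2BC5 with 0.72 (SE 0.29, adjusted p = 0.0599) and H2BC12 with -0.23 (SE 0.094, adjusted p = 0.0599). Their signs are opposite: the fall of H2BC5 was smaller in Lo19S cells and that of H2BC12 larger. H2BC5 passed without control DMSO replicate 1 (0.84, adjusted p = 0.0296) or control bortezomib replicate 1 (0.98, adjusted p = 0.0281) and with library totals (0.81, adjusted p = 0.0288). H2BC12 passed with RLE size factors (-0.25, adjusted p = 0.0435) and without control DMSO replicate 3 (-0.25, adjusted p = 0.0148), Lo19S DMSO replicate 1 (-0.26, adjusted p = 0.0490), control bortezomib replicate 2 (-0.28, adjusted p = 0.0428) or Lo19S bortezomib replicate 1 (-0.28, adjusted p = 0.0298). The other 9 genes lay between -0.37 for H3C4 and 0.66 for H2BC4.

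The 4 untested genes had few counts. H2BC26, which lies head to head with H2AC25 in the HIST3 cluster, had 22 counts over the control DMSO libraries, 13 over Lo19S DMSO, 2 over control bortezomib and 0 over Lo19S bortezomib, where 0 allows up to 3. H2AC13 had 10, 17, 5 and 3 counts in that order of groups, H2BC18 8, 12, 3 and 5, and H1-4 3, 9, 5 and 3. The first 3 genes had fewer counts in each bortezomib group than in its DMSO group. When the filter was replaced by the 20-count minimum, so that all 15 genes were tested, H2BC26 was lower with bortezomib in control cells (adjusted p = 0.00319) and in Lo19S cells (adjusted p = 0.00151) and H2AC13 in Lo19S cells (adjusted p = 0.0152). Both genes reached that minimum mainly through DMSO libraries, so their selection favoured a fall with bortezomib. No support is drawn from these p-values or from the lower counts.

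H2BC20P, an H2B pseudogene of the HIST2 cluster that the protein-coding rule leaves out, had 1807 counts, more than any histone gene kept except H2BC12. It was lower with bortezomib by -0.91 (SE 0.11, adjusted p = 6.67e-10) in control cells and -0.67 (SE 0.10, adjusted p = 9.16e-08) in Lo19S cells, and higher in Lo19S than in control cells under bortezomib, at 0.45 (SE 0.12, adjusted p = 0.0028). As RNAs that lack a poly(A) tail by nature, 13 of 20 listed small noncoding RNAs were found, with 49 counts in all and at most 1.27 scaled CPM in a library. They had 8 counts in control DMSO, 27 in Lo19S DMSO, 12 in control bortezomib and 2 in Lo19S bortezomib, too few for a test, and carry-over of RNA without poly(A) was not tested as a part of the results.

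Genes that make, process or carry histones and their mRNA were examined as lists. SLBP, the stem-loop binding protein, was at 101.0 ± 7.79 scaled CPM in control DMSO, 79.2 ± 4.10 in Lo19S DMSO, 164.9 ± 8.29 in control bortezomib and 100.5 ± 4.26 in Lo19S bortezomib (SD, n = 3). With bortezomib it rose by 0.70 (SE 0.051, adjusted p = 3.46e-17) in control and 0.35 (SE 0.055, adjusted p = 2.35e-07) in Lo19S cells. With library totals these values were 0.32 (adjusted p = 1.54e-07) and 0.06 (adjusted p = 0.317), so the call in Lo19S cells was lost. It was lower in Lo19S than in control cells by -0.36 (adjusted p = 9.34e-07) under DMSO and -0.71 (adjusted p = 1.10e-15) under bortezomib. The responses to bortezomib differed, at -0.36 (SE 0.075, adjusted p = 0.000234). NPAT, the coactivator, was higher with bortezomib by 0.27 (adjusted p = 0.000123) and 0.32 (adjusted p = 1.40e-05), but neither passed with library totals (-0.11 and 0.03), and it was not called between states. CASP8AP2, a histone locus body component needed for histone mRNA processing, was lower with bortezomib in control cells (-0.34, adjusted p = 4.56e-05) and not called in Lo19S cells (-0.12, adjusted p = 0.158). With library totals it was called lower in both, at -0.72 and -0.40 (adjusted p = 4.76e-06 for the latter).

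Scaling to library totals lowered the bortezomib values of these lists by about the shift of all genes, -0.38 in control and -0.29 in Lo19S cells on the log2 scale. Of 16 genes for histone mRNA processing and decay, 10 were called higher and 5 lower with bortezomib in control cells (median 0.22) and 7 higher and 2 lower in Lo19S cells (median 0.11). As shares of the list, 62.5% and 43.8% were higher, where 39.2% and 37.8% of all genes were, so the share in Lo19S cells was near that of all genes. The splits rest on the scaling, since with library totals both were 5 higher and 8 lower. TUT7, a uridylyl transferase, rose by 1.04 in control cells, and ZNF473, a component of the U7-dependent processing machinery, by 0.95 and 0.87 in control and Lo19S cells. The cap-binding subunit NCBP2 fell by 0.45 and 0.36. Of 9 tested genes for histone transcription, 7 were higher and 2 lower in control cells (median 0.50) and 6 and 2 in Lo19S cells (median 0.36), or 5 and 3, and 3 and 3, with library totals. With TMM scaling 77.8% and 66.7% of them were higher, where 39.2% and 37.8% of all genes were. CCNE1, the cyclin E whose kinase activates NPAT, rose by 1.19 and 1.04, while E2F1 fell by 0.83 and 0.98. Between states under DMSO, 5 of the 9 transcription genes were lower and 0 higher, and under bortezomib 6 and 0. As shares, 55.6% and 66.7% were lower, where 13.0% and 21.2% of all genes were.

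S-phase genes, 25 in the list, were mostly lower in Lo19S cells, where the histone genes that were called were higher. Under DMSO 23 were called lower and 0 higher (median -0.35), and under bortezomib 22 lower and 2 higher (median -0.33), or 16 and 2 with library totals. Those were 92% and 88% of the list lower, where 13.0% and 21.2% of all genes were. With bortezomib 18 were lower and 4 higher in control cells (median -0.62) and 17 and 3 in Lo19S cells (median -0.61), or 23 and 1, and 22 and 1, with library totals. With TMM scaling 72% and 68% of the list were lower, where 42.2% and 39.7% of all genes were. CCNA2, the S-phase cyclin A, fell by 2.31 and 1.47, while GINS3, a subunit of the replicative helicase, rose by 1.0 and 0.58. The summed level of the list was 3645 to 3738 scaled CPM in control DMSO, 2842 to 2921 in Lo19S DMSO, 2653 to 2663 in control bortezomib and 2074 to 2094 in Lo19S bortezomib. The part of S-phase content in the histone results was not tested.

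Of 12 histone variants listed as replication-independent, 7 were called lower and 0 higher in Lo19S cells under DMSO (median -0.23). That was 58.3% of the list lower, where 13.0% of all genes were. CENPA, the centromeric H3, was at -0.58. With bortezomib 8 of the 12 were lower and 2 higher in control cells (median -0.68), and 8 and 2 in Lo19S cells (median -0.80). In each state 66.7% were lower, where 42.2% of all genes were in control and 39.7% in Lo19S cells. With library totals the counts were 10 and 1, and 8 and 1. H2AJ fell by 2.46 and 1.90 and CENPA by 2.31 and 1.59, while H3-3B, which encodes H3.3, rose by 0.80 and 0.61. MACROH2A1 was called higher, at 0.19 and 0.30, but with library totals it was called lower in control cells (-0.19) and was not called in Lo19S cells (0.01, adjusted p = 0.735). Of 21 histone chaperones, 13 were lower and 5 higher with bortezomib in control cells (median -0.16) and 10 and 5 in Lo19S cells (median -0.13), or 16 and 3, and 14 and 2, with library totals. The shares called lower were 61.9% and 47.6%, where 42.2% and 39.7% of all genes were called lower. TONSL, which reads newly made H4, fell by 1.5 and 1.39, and DAXX, a chaperone of H3.3, rose by 1.03 and 0.76. Between states under DMSO 12 chaperones were lower, among them CHAF1A, the large subunit of the replication-coupled assembly factor CAF-1 (-0.48), and 1, ASF1A, was higher (0.52). That was 57.1% of the chaperones lower, where 13.0% of all genes were.

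**Figure D4:**
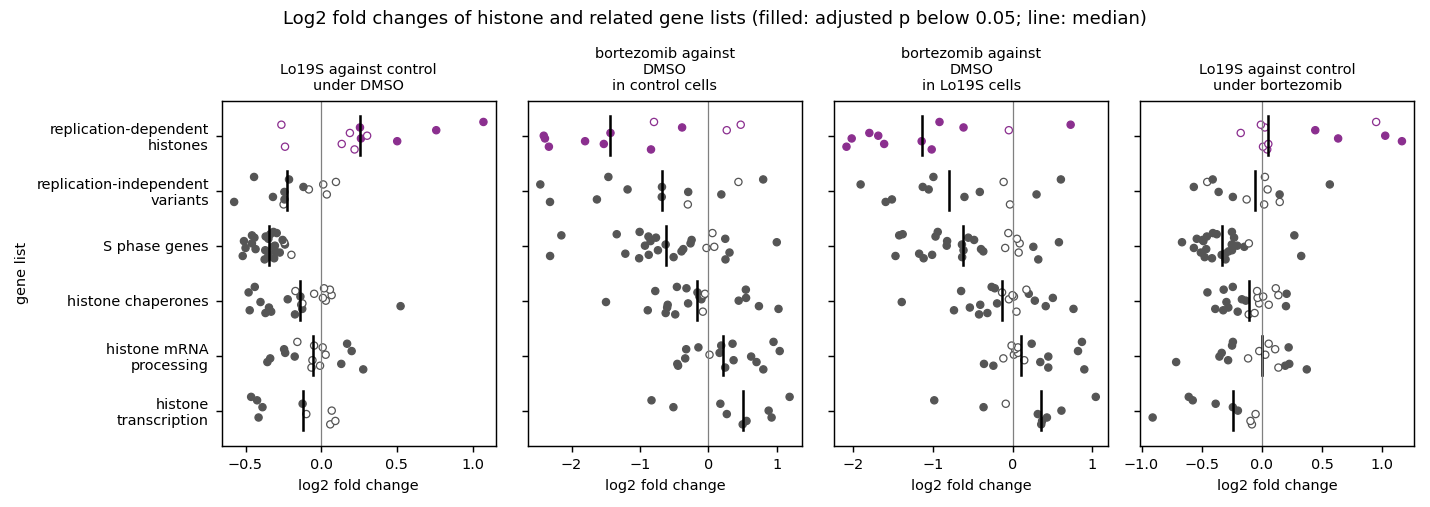
Log2 fold changes (x axis) of the tested replication-dependent histones and of 5 related gene lists (y axis) in 4 comparisons, 1 point per gene, filled at an adjusted p below 0.05, with a line at each list's median. Under DMSO the median is 0.26 for the replication-dependent histones and -0.35 for the S-phase genes. With bortezomib in control cells the medians are -1.43, which is the value of H3C4, and -0.62.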

How the data were processed

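RNA from 12 libraries of T47D cells was extracted with TRIzol and made into stranded polyA libraries, per the labels. The deposited values are whole-number read counts per gene, which the authors did not normalize; per the submitters' processing notes, STAR 2.5.4b, featureCounts 1.6.1 and build GRCh37 were used. How strand and multi-mapping reads were treated is not given in the sources used here. Groups came from the labels.

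The genes and lists were chosen with earlier results of these data known. Of 57773 identifiers, 51996 had a symbol. Biotypes, transcripts, overlaps and neighbours came from GENCODE 29 and promoters from RefSeq (GRCh38.p14), neither in the build of the counts, so only printed promoter windows carry coordinates. Counts were filtered with filterByExpr by group, leaving 14714 genes, scaled with TMM factors and fitted over all 12 libraries with 1 coefficient per group with edgeR 4.0.16, using its robust quasi-likelihood test (limma 3.58.1, R 4.3.3). P-values were adjusted by Benjamini-Hochberg over all genes tested, in 5 comparisons, and called below 0.05. SE was approximated as the size of the log2 fold change divided by the root of F. The fit was tested on simulated data. DESeq2 1.42.0 and other scalings, filters and left-out libraries were alternatives. All kept genes are named; in each list and comparison up to 2 called genes with the largest rise and up to 2 with the largest fall could be named, with SLBP, NPAT, CASP8AP2 and PSMD2 always. Library totals of 7376597 to 15003480 counts limit genes at a few counts, and 0 counts allow up to 3. This covers counting error only, since no molecular identifiers mark PCR copies.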

Additional observations from a re-analysis of the deposited data

How the results depend on the processing

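Of the 27 calls of single histone genes over the 5 comparisons, 20 were on the same side of the threshold in every alternative that tested the gene. In at least 1 alternative 7 were lost, and 0 reversed. The cause was not tested. For bortezomib in Lo19S cells H3C4 was tested in 18 alternatives and the other genes in 19. Scaling to library totals moved the median of all genes by -0.38 and -0.29 for bortezomib in control and Lo19S cells and by 0.11 for Lo19S against control under bortezomib. With it, the histone median for bortezomib was -1.80 in control cells, which is the value of H3C4, and -1.43 in Lo19S cells. Then 0 histone genes were higher with bortezomib in Lo19S cells, and 1 was higher in the difference of responses. The class ratios for bortezomib in control and Lo19S cells became -1.87 and -1.88 for H1, -2.71 and -2.29 for H2A, -0.97 and -1.02 for H2B, and -0.32 and -0.54 for H4, and the H2B ratio between states under bortezomib 0.22. With RLE size factors 1 gene was higher with bortezomib in control cells and 1 lower in the difference. Of all genes, 39.8% and 14.3% were called in those directions with that scaling. Under DMSO, DESeq2, the 20-count minimum and testing all genes with at least 1 count each gave 3 genes higher in Lo19S cells. The last 2 settings, which add 4 genes with few counts, gave medians of -0.93 and -0.97 for bortezomib in control cells. Leaving out 1 library in turn gave 3 to 5 genes higher and 0 to 1 lower under DMSO, and 0 to 1 higher with a median of -1.54 to -1.06 for bortezomib in control cells. For bortezomib in Lo19S cells the median was -1.45 to -0.98. Under bortezomib 2 to 5 genes were higher in Lo19S cells with a median of 0.053 to 0.51. In the difference 0 to 1 were higher and 0 to 1 lower with a median of -0.084 to 0.24. Calls over all genes moved as well in these fits, counted in either direction. They ran from 2840 to 4603 under DMSO and from 11659 to 12124 for bortezomib in control cells. Between states under bortezomib they ran from 5368 to 7080, and in the difference from 3408 to 4981.

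The replicate numbers did not pair the libraries: deviations of same-numbered libraries correlated at -0.072 to 0.026, those of others at -0.026 to 0.048. With the replicate number as a block, H2AC6 was no longer called higher in Lo19S cells under DMSO (adjusted p = 0.0571). H4C16 was now called higher in Lo19S than in control cells under bortezomib (adjusted p = 0.0451). The other histone calls were those of the main fit, for which the shares of all genes are given above. Depth limits H3C4 and the 4 untested genes.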
